A study of Homo sapiens with 22 samples.

Results

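The genes of oxidative phosphorylation were followed across RNA-seq libraries of H1299 cells. Members were the protein-coding genes of the count table whose symbols carry the family names of the 5 respiratory complexes (MT-ND, MT-CO, MT-ATP, MT-CYB, the NDUF families, SDHA to SDHD, UQCR, CYC1, COX4I to COX8, ATP5F, ATP5M and ATP5P). This gave 110 of 37908 genes, 13 encoded by mitochondrial DNA (mtDNA) and 97 by the nucleus. The nuclear members held 37 subunits and 8 assembly factors of complex I, 4 subunits of complex II, 10 members of complex III, 19 of complex IV and 19 of complex V, counted with alternative isoforms and copies.

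H1299, a line of human non-small cell lung carcinoma, carried a BRCA2 shRNA that doxycycline (DOX) switches on. BRCA2-proficient cells received no DOX, and BRCA2-deficient cells received 2 µg/mL DOX for 3 days, so DOX exposure and BRCA2 depletion cannot be told apart. Each was transfected either with AllStars control siRNA or with one targeting β-catenin (siβ-catenin), and LY2090314, which blocks the kinase GSK3 (GSK3i), was given at 250 nM for 24 h or left out. Control siRNA without GSK3i is called untreated. The 8 groups held 3 libraries each, except BRCA2-proficient untreated and BRCA2-proficient siβ-catenin, which held 2 each, numbered 2 and 3.

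Oxidative phosphorylation is the process by which mitochondria use electrons from nutrients to make ATP. Complexes I to IV pass the electrons to oxygen and, except for complex II, pump protons across the inner mitochondrial membrane, and complex V uses the returning protons to make ATP. Complex II is the only one built entirely from nuclear genes, while the other complexes join subunits made from both genomes.

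Library totals, in units of 1e6 counts, ran from 18.9 to 29.3. BRCA2 had 771 ± 108 normalised counts (SD, n = 2) in untreated BRCA2-proficient cells and 122 ± 54.1 (n = 3) in untreated BRCA2-deficient cells. CTNNB1, which encodes β-catenin, was lower with siβ-catenin in all 4 comparisons, by 1.68 to 2.12 on the log2 scale. The epithelial keratins KRT8 and KRT18 and the mesenchymal VIM were well expressed, with means of 4290, 7369 and 23756 normalised counts, whereas EPCAM and KRT19 were near 0 (10.9 and 2.53). Of the markers of other cell types, PTPRC, LUM, SFTPC and VWF had means of at most 5.96, and DCN had 30.0.

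2 libraries went against their labels. On the first principal component, the library labelled BRCA2-proficient siβ-catenin replicate 2 stood at 28.75, near the GSK3i plus siβ-catenin libraries (25.16 and 27.03), while its partner stood at -1.773. The library labelled BRCA2-proficient GSK3i plus siβ-catenin replicate 2 stood at -21.45, near the untreated libraries of the same cells (-15.76 and -19.13). KRT8 and TCF7 (the latter chosen after its values were seen) showed the same order, with 2637 and 593 normalised counts in the former library and 5717 and 396 in the latter. The labels were kept, and results resting on these libraries are given with and without them.

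The promoters of nuclear members were examined because several of these genes moved together with GSK3i. RefSeq (GRCh38.p14) held the window of 250 bases before the start for 76 of the 97 nuclear members. Capitals mark short motifs found on either strand among GCGCATGC (core of the NRF1 site), CCGGAAG (core of the ETS site), AAGATGG (core of the YY1 site), CACGTG (E-box) and CTTTGAT (core of the TCF/LEF site), and the motifs do not overlap one another in the windows shown. NDUFAF4, NDUFAF5, NDUFS3 and SDHB are shown as genes that rose in several settings, and NDUFAF3 as the one that fell. They were picked by hand and not by rank.
NDUFAF4 promoter, chr6:96897892-96898141, minus strand: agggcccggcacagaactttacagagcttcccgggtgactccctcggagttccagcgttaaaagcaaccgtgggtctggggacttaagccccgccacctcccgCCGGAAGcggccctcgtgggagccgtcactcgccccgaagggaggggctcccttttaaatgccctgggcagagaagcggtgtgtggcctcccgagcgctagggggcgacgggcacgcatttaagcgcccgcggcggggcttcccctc
NDUFAF5 promoter, chr20:13784778-13785027, plus strand: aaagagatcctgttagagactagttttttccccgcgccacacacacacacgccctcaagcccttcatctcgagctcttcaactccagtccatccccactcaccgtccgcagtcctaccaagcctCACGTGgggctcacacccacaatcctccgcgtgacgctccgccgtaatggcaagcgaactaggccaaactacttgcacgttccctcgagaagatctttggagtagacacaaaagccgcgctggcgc
NDUFS3 promoter, chr11:47578824-47579073, plus strand: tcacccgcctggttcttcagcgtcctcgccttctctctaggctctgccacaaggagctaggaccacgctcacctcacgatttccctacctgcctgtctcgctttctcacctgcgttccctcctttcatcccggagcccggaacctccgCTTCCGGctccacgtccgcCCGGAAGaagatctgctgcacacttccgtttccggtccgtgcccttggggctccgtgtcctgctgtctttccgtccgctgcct
SDHB promoter, chr1:17054033-17054282, minus strand: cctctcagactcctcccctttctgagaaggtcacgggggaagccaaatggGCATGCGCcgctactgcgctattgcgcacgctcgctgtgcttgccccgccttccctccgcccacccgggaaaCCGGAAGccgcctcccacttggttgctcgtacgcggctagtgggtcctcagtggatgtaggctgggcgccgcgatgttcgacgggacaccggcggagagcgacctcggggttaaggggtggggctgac
NDUFAF3 promoter, chr3:49020202-49020451, plus strand: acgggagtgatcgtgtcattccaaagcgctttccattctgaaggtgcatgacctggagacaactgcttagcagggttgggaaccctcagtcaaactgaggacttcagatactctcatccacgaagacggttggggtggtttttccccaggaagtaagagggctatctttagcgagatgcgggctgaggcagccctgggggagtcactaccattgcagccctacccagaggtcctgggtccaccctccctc

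NDUFAF4 and SDHB each held an ETS core, SDHB also an NRF1 core, NDUFS3 the ETS core on both strands and NDUFAF5 an E-box. None of the motifs occurred in the NDUFAF3 window. The windows of NDUFAF2, NDUFAB1, ATP5MC1 and UQCRC2, which were called higher with GSK3i, held none of them either. Over the 76 member windows, the NRF1 core was in 15.8% against 2.81% of 27305 promoters in all, and the ETS core in 23.7% against 8.82%. The YY1 core was in 5.26% against 3.77%, the E-box in 9.21% against 6.49%, and the TCF/LEF core in 0 of 76 against 2.28%. Of the 76 windows, 24 belonged to members called higher with GSK3i in at least one of 3 settings. The settings were BRCA2-proficient or BRCA2-deficient cells with control siRNA, and BRCA2-deficient cells with siβ-catenin. Called members without a window, such as ATP5MC3 and CYC1, are not counted. Among those 24, 8 held the ETS core (33.3%) and 3 the NRF1 core (12.5%), against 10 (19.2%) and 9 (17.3%) of the other 52. These shares are descriptions without a test.

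An mtDNA-encoded transcript was the most abundant member per length in each of the complexes that have one, although MT-ATP8 (11850 per kilobase) lay below the nuclear ATP5F1B (14788) in complex V. Normalised counts per kilobase of transcript, as means over all 22 libraries, were highest for MT-CO2 (37367) in complex IV, MT-ATP6 (33661) in complex V, MT-ND4 (29274) in complex I and MT-CYB (15923) in complex III. In complex II, the iron-sulphur subunit gene SDHB was highest (2982 per kilobase) and the membrane anchor gene SDHC lowest (1228). The lowest members elsewhere were ATP5MGL (0.391 per kilobase) and COX4I2 (0.305), both close to absent, NDUFA7 (34.0) and UQCRB (537). UQCRB ranked low after division by a transcript length of 8459 bases. In the fit for GSK3i in BRCA2-deficient cells its undivided mean was 4678. That lay above UQCRQ (1804) and UQCR10 (1063) and below CYC1 (5983) and UQCRC1 (6814). NDUFA7 shares 77.9% of its exon length with other genes on the same strand, so that counting can split or drop its reads. The positions of the leading members on GRCh37 were chromosome 6, 97337191 to 97345767 for NDUFAF4, chromosome 20, 13765653 to 13802226 for NDUFAF5, chromosome 11, 47586888 to 47606114 for NDUFS3, chromosome 1, 17345159 to 17380527 for SDHB, and chromosome 3, 49057892 to 49060928 for NDUFAF3.

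Complex IV has subunits with tissue forms, and H1299 cells held mainly the common form of each pair. The ubiquitous COX4I1 had 9880 normalised counts per kilobase against 0.305 for the lung form COX4I2. COX6A1 had 3741 against 6.93 for the muscle form COX6A2, and COX6B1 had 10797 against 6.69 for the testis form COX6B2. COX7A2 had 5626 against 20.5 for the muscle form COX7A1, COX8A had 5281 against 8.86 for COX8C, and NDUFA4 had 1231 against 18.1 for the hypoxia-linked NDUFA4L2. COX7B2 was the exception, at 604 per kilobase against 1243 for COX7B, with transcript lengths of 556 and 2444 bases. Before division by length the gap was wider, with means of 346 and 2976 in the fit for GSK3i in BRCA2-deficient cells. In 103 members the counts were high enough to be tested in every comparison, 2 (COX6B2 and COX7A1) were tested in some, and 5 (ATP5MF-PTCD1, ATP5MGL, COX4I2, COX6A2 and COX8C) in none.

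The first question was how these genes respond to GSK3 inhibition. In BRCA2-proficient cells, 25 nuclear members and no mtDNA-encoded member rose, and the difference between the genomes was not tested. A gene was called at a Benjamini-Hochberg adjusted p below 0.05 in DESeq2 with a log2 fold change beyond 0.5. By this rule 25 of 104 members tested were higher (24.0%; 11.8% of all 16771 genes tested were higher) and 1 was lower (0.962%; 14.2% of all genes). All 26 were nuclear, and the median log2 fold change was 0.36 over 91 nuclear members, -0.11 over the 13 mtDNA-encoded members and 0.00 over all genes. edgeR's quasi-likelihood test also called 26. Epithelial keratins moved with GSK3i in the other direction. In BRCA2-proficient and then BRCA2-deficient cells with control siRNA, KRT8 changed by -1.15 ± 0.17 and -1.31 ± 0.24 and KRT7 by -1.44 ± 0.24 and -1.39 ± 0.20, all called lower. KRT18 had -0.46 ± 0.15, short of the fold criterion, and -0.76 ± 0.25, called lower. VIM (-0.15 ± 0.13 and -0.40 ± 0.20) and CDH2 (-0.12 ± 0.12 and -0.06 ± 0.15) were not called, and the part of these markers in the result was not tested. In bulk RNA, fewer cells of a type and less RNA per cell cannot be told apart.

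**Figure D1:**
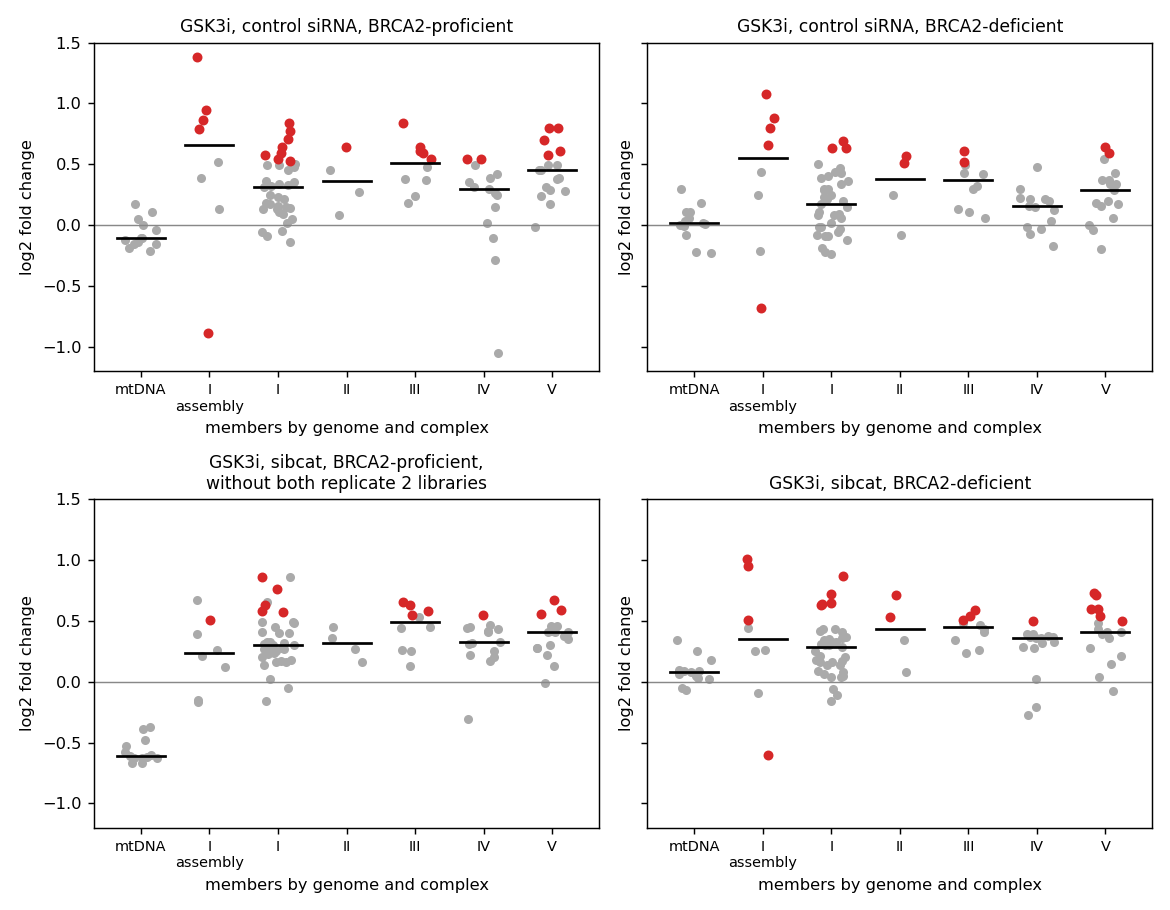
Log2 fold change with GSK3i (y axis) for every tested member, grouped by genome and complex (x axis; roman numerals are nuclear subunits, I assembly the NDUFAF genes), in 4 settings (sibcat is siβ-catenin, and its BRCA2-proficient panel leaves out both replicate 2 libraries). Points are genes, red points passed both criteria and black lines are medians. Nuclear classes have medians above 0 in each setting, and the mtDNA class lies near or below 0 (panel by panel, medians -0.11, 0.02, -0.61 and 0.08).

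The assembly factors of complex I, which help to put the complex together without being part of it, moved most and in both directions. NDUFAF4 had 679 and 600 normalised counts in the 2 untreated libraries and 1810, 1583 and 1647 with GSK3i. The groups did not overlap, and the log2 fold change was 1.38 ± 0.14 (SE; adjusted p = 2.03e-19). NDUFAF5, an assembly factor that modifies the subunit NDUFS7, had 264 and 276 counts without and 596, 481 and 507 with GSK3i, again without overlap (0.95 ± 0.18, adjusted p = 1.47e-06). NDUFAF2 rose by 0.86 ± 0.17 and NDUFAF6 by 0.79 ± 0.18. NDUFAF3 was the only member called lower, with 861 and 658 counts in untreated cells and 474, 455 and 309 with GSK3i (-0.89 ± 0.21, adjusted p = 0.000148). Leaving out untreated replicate 2 ended that call (adjusted p = 0.0654), and 11.2% of its exon length overlaps DALRD3 on the opposite strand. Of the other 3 factors, NDUFAF1, NDUFAF7 and NDUFAF8, none passed both criteria.

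Among complex I subunits, 8 of 37 rose and none fell. NDUFS3, a core subunit of the arm that reaches into the matrix, had 2070 and 1664 counts in untreated cells and 3914, 3355 and 2858 with GSK3i, without overlap (0.84 ± 0.16, adjusted p = 3.99e-06). NDUFB9 rose by 0.77 ± 0.14 and NDUFAB1, which is also the mitochondrial acyl carrier protein, by 0.71 ± 0.15. The other 5 (NDUFA8, NDUFA9, NDUFA10, NDUFB7 and NDUFV3) rose by 0.53 to 0.64.

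In complex II, SDHB was called. It had 2562 and 2295 counts in untreated cells and 4084, 3847 and 3517 with GSK3i (0.64 ± 0.13, adjusted p = 1.9e-05). SDHD reached 0.45 ± 0.16, which missed the fold criterion, and SDHA (0.27 ± 0.13) and SDHC (0.08 ± 0.14) did not pass the test. Complex III had 5 of 10 members called higher: UQCRC2, a core subunit (0.61 ± 0.12), CYC1, the cytochrome c1 that carries electrons onward (0.64 ± 0.15), UQCR10, UQCRH and its near-identical copy UQCRHL, whose counts are uncertain because reads of UQCRH can map to both. Complex IV had 2 of 15 tested, COX5A and COX6A1 (both 0.54), and complex V had 5 of 17, among them ATP5MC1 and ATP5PB (both 0.80) and ATP5MC3 (0.70 ± 0.14). ATP5MC3, which encodes the same membrane-ring protein as ATP5MC1, had 2998 and 2499 counts in untreated cells and 4950, 4491 and 4129 with GSK3i, without overlap.

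**Figure D2:**
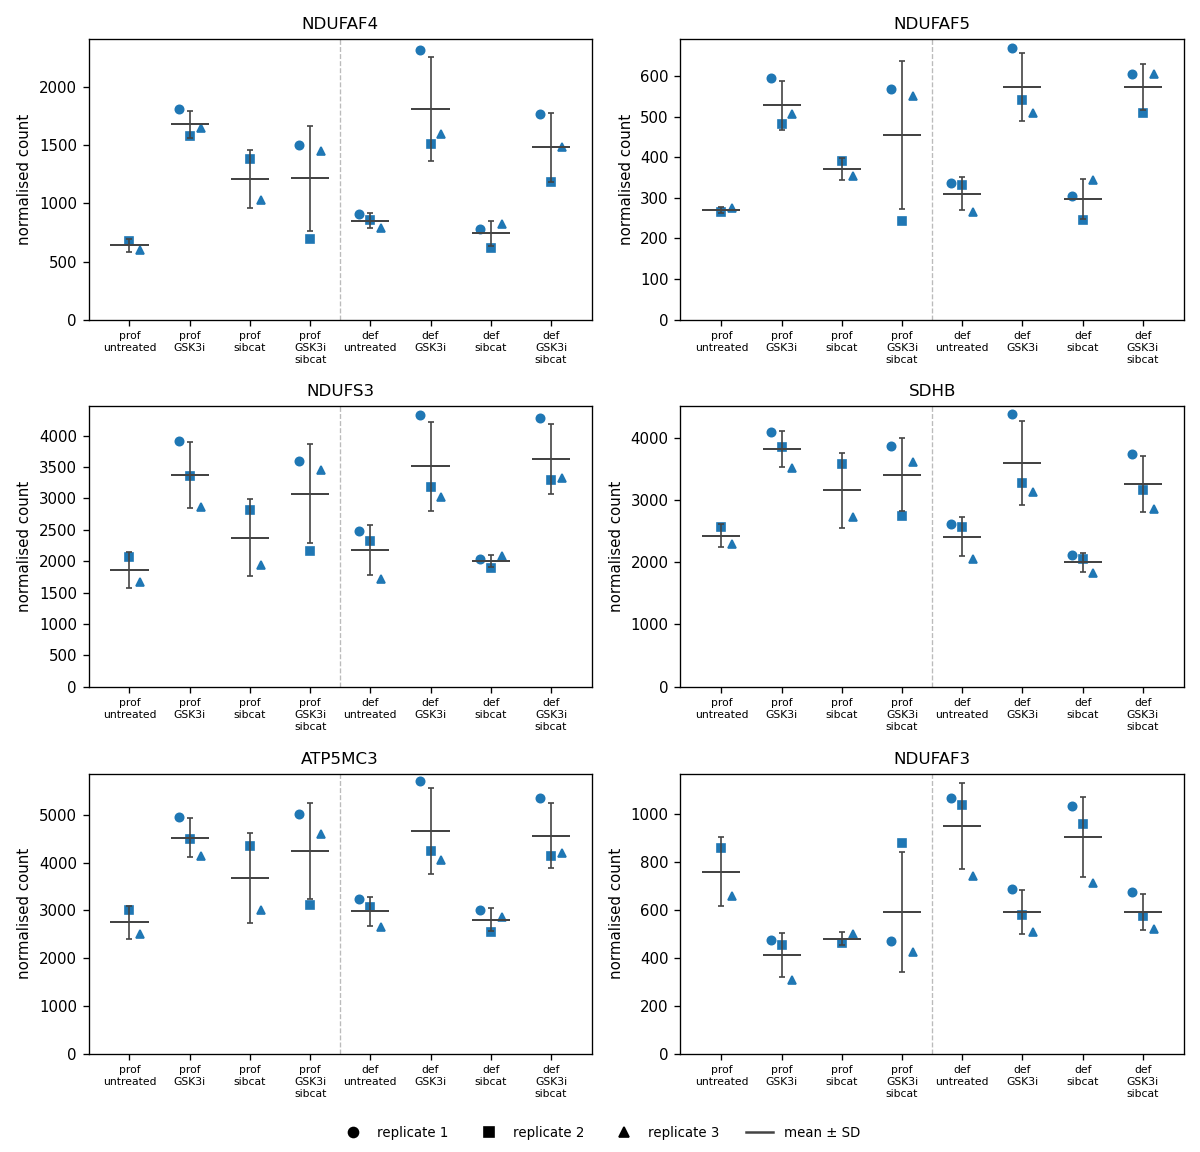
Normalised counts (y axis, from 0) of 6 named members in the 22 libraries by group (x axis; prof, BRCA2-proficient; def, BRCA2-deficient; sibcat, siβ-catenin). Marker shape is the replicate number and lines are the mean ± SD. NDUFAF4, NDUFAF5, NDUFS3, SDHB and ATP5MC3 stand higher and NDUFAF3 lower with GSK3i in both control-siRNA backgrounds. The library labelled BRCA2-proficient GSK3i plus siβ-catenin replicate 2 has 692 NDUFAF4 counts against 1499 and 1454 in the other two.

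Replicate 1 libraries bear on the size of this result, since untreated BRCA2-proficient cells had none. The library median of the nuclear members, taken on the log2 scale relative to each gene's mean over all libraries, was 0.31 in GSK3i replicate 1 against 0.07 and -0.06 in replicates 2 and 3, and -0.21 and -0.37 in the untreated libraries. Without GSK3i replicate 1, the calls fell to 14 higher and 1 lower and the nuclear median to 0.25. With the replicate number as a block, 14 members were called in all, also with a nuclear median of 0.25. Within numbers 2 and 3, the library median was higher with GSK3i by 0.28 and 0.31. Without GSK3i replicate 3, in contrast, 42 members were called in all, and the share of all genes called in that fit is not given here. Of the 25 increases, 14 passed in all 5 fits that left out one library each, among them NDUFAF2, NDUFAF4, NDUFAF5, NDUFAF6, NDUFS3, SDHB, CYC1, ATP5PB and ATP5MC3.

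**Figure D3:**
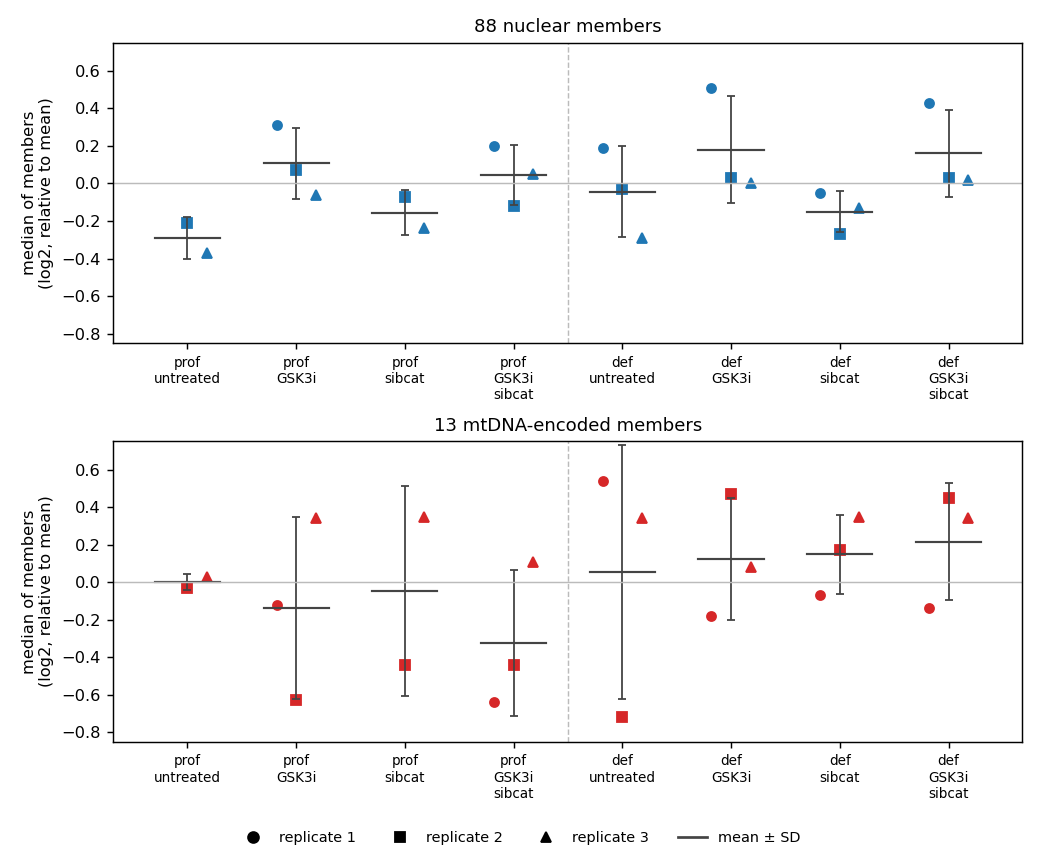
Median over members of the log2 normalised count relative to each gene's mean (y axis) in the 22 libraries by group (x axis), for 88 nuclear members (top) and 13 mtDNA-encoded members (bottom). Marker shape is the replicate number, and lines are the group mean ± SD. In BRCA2-deficient cells, same-numbered libraries stand higher with GSK3i for nuclear members in every pair with either siRNA, whereas mtDNA-encoded members spread from -0.72 to 0.54 with no common order.

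In BRCA2-deficient cells, the same assembly factors and NDUFS3 rose, but the members as a set were called higher about as often as other genes. By the same rule, 13 of 103 members were higher (12.6%; 11.6% of all 16863 genes) and 1 was lower (0.971%; 13.8%). edgeR called 10. The median was 0.21 over 90 nuclear members against 0.02 over all genes, and 0.02 over the mtDNA-encoded ones. NDUFAF4 had 913, 860 and 787 counts in untreated cells and 2325, 1512 and 1594 with GSK3i, without overlap (1.08 ± 0.21, adjusted p = 4.34e-06). NDUFAF5 rose by 0.88 ± 0.20, NDUFAF6 by 0.80 ± 0.19 and NDUFS3 by 0.69 ± 0.21.

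NDUFAF3 had 1067, 1039 and 744 counts in untreated BRCA2-deficient cells and 688, 578 and 510 with GSK3i (-0.68 ± 0.21, adjusted p = 0.00658). That call was lost when replicate 2 of the untreated cells was left out (adjusted p = 0.081), and likewise for replicates 2 and 3 of the inhibitor-treated cells (adjusted p = 0.0583 and 0.0647). Complex II had 2 of 4 genes called, SDHB (0.57 ± 0.20) and SDHA, the flavoprotein that oxidises succinate (0.51 ± 0.16). NDUFAF2, NDUFAB1, NDUFB9, UQCRC2, UQCRHL, ATP5PB and ATP5MC3 made up the rest of the increases, and no complex IV member was called. GSK3i replicate 1 stood highest, with a nuclear library median of 0.51 against 0.03 and 0.00. Without it, 4 members were called higher and 2 lower, and the nuclear median was 0.02. Without untreated replicate 2 or 3, the calls in either direction came to 5 and 6. The 4 increases that passed in all 6 fits leaving out one library were NDUFAF4, NDUFAF5, NDUFAF6 and NDUFS3. Paired by number, the library median was higher with GSK3i by 0.32, 0.06 and 0.29.

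The difference between backgrounds was tested as an interaction. Over 17381 genes 0.0345% were called, and no member was, with DESeq2 or edgeR. No member had an unadjusted p below 0.05 by DESeq2, against 558 of the 17381 genes. The interaction was above 0 in 5 of 91 nuclear members, with a median of -0.16, and the replicate block brought this median to -0.04. Without BRCA2-deficient GSK3i replicate 1 it was -0.34, and without BRCA2-proficient GSK3i replicate 1 it was -0.04. In the former fit, 15 of 91 nuclear members had an unadjusted p below 0.05 by DESeq2, at a lowest adjusted p of 0.299. The share of all genes in that fit is not given here. Both backgrounds have their own controls, and 12 genes were called higher in both, 48.0% of the 25 in BRCA2-proficient and 92.3% of the 13 in BRCA2-deficient cells. The overlap over all genes is not given here, so that of the members has nothing to be set against. NDUFAF3 was called lower in both, and in each background its call depended on single libraries.

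The next question was whether the response remained after depletion of β-catenin. The depletion was partial by CTNNB1 counts. TCF7, named by the paper among WNT targets, had 389, 273 and 409 counts with siβ-catenin alone in BRCA2-deficient cells. With GSK3i added it had 677, 515 and 522. The part of the remaining β-catenin in the response of the members was not tested. In BRCA2-deficient cells with siβ-catenin, GSK3i raised 20 of 104 members (19.2%; 8.56% of all 17610 genes) and lowered 1 (0.962%; 11.5%), and edgeR called 19 in all. The nuclear median was 0.34, against 0.01 over all genes and 0.08 over mtDNA-encoded members. NDUFAF4 had 783, 617 and 827 counts with siβ-catenin alone and 1774, 1185 and 1489 with GSK3i added (1.01 ± 0.19, adjusted p = 6.92e-06). NDUFS3 had 2037, 1888 and 2085 counts and then 4278, 3296 and 3327 (0.87 ± 0.16, adjusted p = 2.29e-06). Neither gene overlapped between groups. The member called lower was again NDUFAF3 (-0.60 ± 0.19), a call lost without siβ-catenin replicate 1 (adjusted p = 0.117) or 2 (0.0688) or GSK3i plus siβ-catenin replicate 3 (0.0672), and in one model over all groups (0.0554). SDHB rose by 0.71 ± 0.16 and SDHD by 0.53 ± 0.16, and 6 complex V genes rose, by 0.50 to 0.73.

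Relative to control siRNA in the same background, the interaction gave no called member (0.486% of 18117 genes were called). By DESeq2, no member had an unadjusted p below 0.05, against 994 of the 18117 genes. Without GSK3i replicate 1 of the control siRNA, 5 of 92 nuclear members had one, at a lowest adjusted p of 0.382. Leaving out GSK3i plus siβ-catenin replicate 1, whose nuclear library median was 0.43 against 0.03 and 0.02, reduced the calls to 8 higher and 1 lower and the nuclear median to 0.18, and leaving out siβ-catenin replicate 2 gave 11 calls. In the pairs by number the nuclear library median was higher with GSK3i by 0.48, 0.30 and 0.15. Of the 20 increases, 8 passed in every fit that left out one library: NDUFAF4, NDUFAF5, NDUFS3, NDUFAB1, SDHB, UQCRC2, ATP5PB and ATP5MC3. Between BRCA2-proficient cells with control siRNA and BRCA2-deficient cells with siβ-catenin, which share no library, 17 increases were in common, 68.0% of 25 and 85.0% of 20. GSK3i was given in both, and the overlap over all genes is not given here. The overlap of members can therefore not be called particular to them.

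In BRCA2-proficient cells with siβ-catenin, no member was called with the libraries as labelled, and few genes were in all (0.047% higher and 0.00588% lower of 17010). edgeR called no member either, and 0 of all 17010 genes. By DESeq2, 6 members had an unadjusted p below 0.05, as did 263 of the 17010 genes. NDUFAF4 had 1386 and 1034 counts in the libraries labelled siβ-catenin and 1499, 692 and 1454 in those labelled GSK3i plus siβ-catenin. Without both replicate 2 libraries, a fit of 1 against 2 libraries chosen after seeing the data and in which the lone library is assumed to vary like the others, 14 members were called higher (3.47% of all genes) and none lower (3% of all genes). NDUFS3 led, at 0.86 ± 0.14 (adjusted p = 3.51e-07), and the nuclear median was 0.33. NDUFAF4 reached 0.51 ± 0.17. The mtDNA median was -0.61 in that fit and -0.31 with the libraries as labelled.

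The 13 mtDNA-encoded members gave no call in any of the 10 pairwise comparisons with the libraries as labelled. In the plot of shares, they took 0.688% to 1.63% of all counts per library. In untreated BRCA2-deficient cells it was 1.63%, 0.708% and 1.53%, and with GSK3i 0.876%, 1.47% and 1.19%. The groups overlapped, and same-numbered libraries differed by factors of 0.536, 2.08 and 0.78. MT-CO1, the catalytic subunit of complex IV, had 83197, 38610 and 72713 normalised counts in the untreated BRCA2-deficient libraries and 46445, 63163 and 57346 with GSK3i (-0.22 ± 0.28, adjusted p = 0.598).

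**Figure D4:**
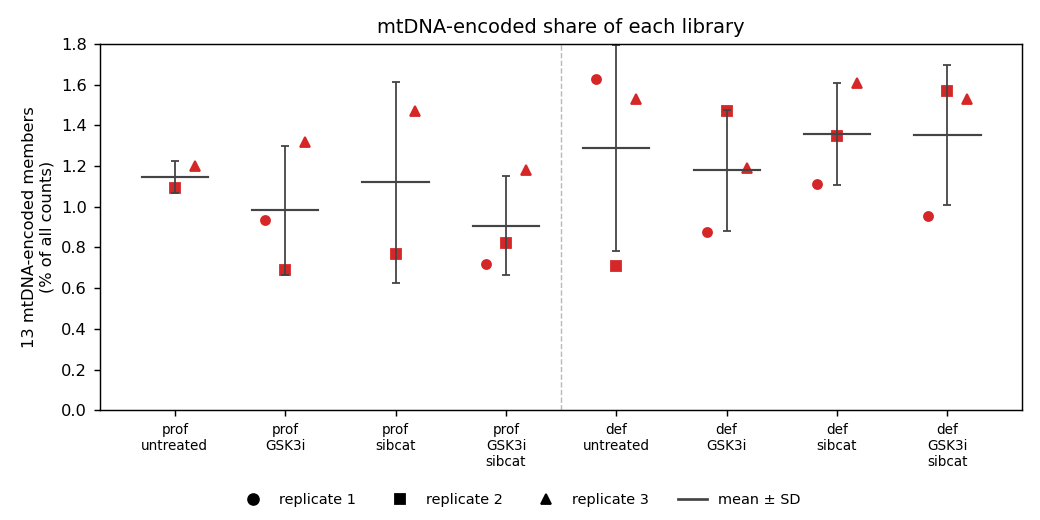
Share of all counts taken by the 13 mtDNA-encoded members (y axis, percent, from 0) in the 22 libraries by group (x axis). Marker shape is the replicate number and lines are the mean ± SD. The shares run from 0.688% to 1.63%, and every group overlaps its comparison group.

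By gene, with GSK3i in BRCA2-proficient cells, the 13 transcripts lay between -0.21 ± 0.40 (MT-ND4L) and 0.17 ± 0.41 (MT-ND6). In BRCA2-deficient cells they lay between -0.23 ± 0.27 (MT-CO3) and 0.30 ± 0.67 (MT-ND5). MT-ND6 is the one protein gene on the opposite strand from the others. MT-ATP8 shares 22.2% of its length with a neighbour, so that its reads can be dropped or split. MT-ND1, MT-ND2, MT-ND3, MT-ND4, MT-CO2, MT-CYB and MT-ATP6 lay between -0.14 and 0.11 with GSK3i in both backgrounds with control siRNA. Their SEs were 0.18 to 0.39, so that a change of the size seen in most nuclear members would not have been detectable for many of them.

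Depletion of β-catenin itself changed few members. Under GSK3i no member was called in BRCA2-proficient cells (5.1% of all genes were) or in BRCA2-deficient cells (5.52%), and edgeR called none. At an unadjusted p below 0.05, DESeq2 had 1 and 0 members, against 2875 of 16393 and 2955 of 17025 genes. The nuclear medians were -0.04 and -0.02. Leaving out the library labelled GSK3i plus siβ-catenin replicate 2 gave 1 call in BRCA2-proficient cells, COX7B2 (0.65 ± 0.22, adjusted p = 0.0462).

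Without GSK3i, siβ-catenin in BRCA2-proficient cells (2 against 2 libraries; 2.97% of all genes called) gave NDUFAF4 as the only member called (0.91 ± 0.23, adjusted p = 0.00632). It had 679 and 600 counts in untreated cells and 1386 and 1034 in those labelled siβ-catenin, the higher in the doubted library. Without that library the NDUFAF4 call was lost, and MT-ND2, MT-ND5 and MT-ND6 were called higher instead (0.53 to 0.57), again with 1 library in the siβ-catenin group. In BRCA2-deficient cells (2.03% of all genes called), NDUFC2, a membrane-arm subunit of complex I, was lower, with 541, 449 and 359 counts in untreated cells and 285, 295 and 164 with siβ-catenin (-0.86 ± 0.25, adjusted p = 0.0318). edgeR called neither gene. Over all genes it called 0 higher and 1 lower of 17654 in BRCA2-proficient cells, and 0 of 17324 in BRCA2-deficient cells. The NDUFC2 call was lost without untreated replicate 1 or 2 or siβ-catenin replicate 1 or 3 (adjusted p of 0.091, 0.216, 0.0952 and 0.18). The nuclear median there was -0.11 against 0.01 over all genes, and the nuclear library median differed by -0.24, -0.24 and 0.16 in the pairs by number.

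The interaction of GSK3i with siβ-catenin in BRCA2-proficient cells (7.63% of all genes called) called NDUFAF4 (-1.37 ± 0.40, adjusted p = 0.017) and NDUFAF2 (-0.93 ± 0.28, adjusted p = 0.0193), and NDUFAF3 had the opposite sign (1.21 ± 0.44, adjusted p = 0.0577). Without both doubted libraries, NDUFAF4 had -0.87 ± 0.22 and NDUFAF2 -0.74, in a fit with 1 siβ-catenin library chosen after seeing the data. Without untreated replicate 2 or 3, which leaves 1 untreated library, neither was called, at -1.46 or -1.28 for NDUFAF4. Without only the library labelled siβ-catenin replicate 2, which leaves 1 such library, neither was called, at -1.14 for NDUFAF4 and -0.88 for NDUFAF2. Without only the library labelled GSK3i plus siβ-catenin replicate 2, both were, at -1.09 and -0.79. Without control-siRNA GSK3i replicate 1 or 2, NDUFAF4 was called and NDUFAF2 was not (adjusted p = 0.055 and 0.0556 for NDUFAF2). edgeR called no member with the libraries as labelled. Over all 17093 genes it called 0 higher and 4 lower, against 661 and 644 by DESeq2.

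BRCA2 depletion called no member, either in untreated cells (6.91% of all genes were called) or under GSK3i (6.81%), and edgeR called none. At an unadjusted p below 0.05, DESeq2 had 13 and 4 of at least 103 members tested. Over all genes it had 3173 of 17157 and 3136 of 16336. In untreated cells, 82 of 92 nuclear members had a positive log2 fold change, with a median of 0.21, and COX7A2L, a factor that links respiratory complexes into supercomplexes and is named after its value was seen, passed the test but not the fold criterion (0.48 ± 0.16, adjusted p = 0.037). Untreated BRCA2-deficient replicate 1, which has no numbered partner, had a nuclear library median of 0.19 against -0.03 and -0.29. With the replicate block the nuclear median was 0.11. Without untreated BRCA2-deficient replicate 3, 10 members were called, and the share of all genes called in that fit is not given here. Under GSK3i the replicate block gave 2 calls, while the nuclear median without it was 0.08 and the mtDNA median 0.15.

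Other genes of mitochondrial energy metabolism, on lists drawn up alongside the members, were also examined for GSK3i. With siβ-catenin in BRCA2-deficient cells the counts higher and lower were 10 and 0, 2 and 0, 9 and 1, 4 and 2, and 7 and 3, in the order in which the lists follow. Of all genes, 11.8% were called higher and 14.2% lower in BRCA2-proficient cells, 11.6% and 13.8% in BRCA2-deficient cells, and 8.56% and 11.5% in the latter with siβ-catenin, and several of the counts lie near these shares. Of 32 genes for mtDNA replication, transcription and RNA handling, 21 rose and none fell in BRCA2-proficient cells, and 14 rose and none fell in BRCA2-deficient cells (medians 0.61 and 0.51). They included LRPPRC, which stabilises mitochondrial mRNAs (0.94 ± 0.13 and 0.90 ± 0.18), and the exoribonuclease gene PNPT1 (0.92 ± 0.15 in BRCA2-deficient cells). Among the 15 nuclear regulators tested, 4 rose and 1 fell in BRCA2-proficient cells, and 5 rose and none fell in BRCA2-deficient cells. ESRRA, a nuclear receptor of mitochondrial gene programmes, rose by 1.26 ± 0.15 and 1.22 ± 0.17, and PPRC1, a coactivator, by 0.89 ± 0.13 and 0.96 ± 0.21. PPARA, a nuclear receptor of fatty acid oxidation, was the one that fell (-0.99 ± 0.17, adjusted p = 8.43e-08), and it had -0.59 ± 0.25 (adjusted p = 0.0562) in BRCA2-deficient cells.

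Of 49 further assembly factors tested, 14 rose and none fell in BRCA2-proficient cells, and 9 rose and 2 fell in BRCA2-deficient cells. COX10, which makes the haem of complex IV, rose by 1.18 ± 0.14 and 1.08 ± 0.16. In the coenzyme Q and cytochrome c list of 20, 5 rose and 2 fell, and 4 rose and 3 fell. CYCS, the cytochrome c that links complexes III and IV, rose by 1.12 ± 0.12 and 1.04 ± 0.20 and PDSS1, of coenzyme Q synthesis, by 1.48 ± 0.16 and 1.62 ± 0.19, while COQ8A fell by 1.15 and 1.28 on the log2 scale. Of 23 tricarboxylic acid cycle genes, 7 rose and 3 fell in each background. The rises included CS (0.69 ± 0.12 and 0.71 ± 0.14) and IDH3A (1.09 ± 0.15 and 1.28 ± 0.19), and the falls were IDH2 and the pyruvate dehydrogenase kinases PDK2 (-1.84 ± 0.18 and -1.53 ± 0.18) and PDK4 (-2.52 ± 0.33 and -2.53 ± 0.26).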

How the data were processed

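Poly(A)-enriched, strand-specific libraries were sequenced as paired ends. The deposited values are raw counts per Ensembl gene. To make them, the authors used HISAT2 (GRCh37), then Picard, which took out duplicates, and featureCounts, which kept reads with a single mapping. Removing duplicates lowers the counts of abundant transcripts such as the mtDNA-encoded ones most, and unique mapping drops reads shared with nuclear copies of members. The annotation release and the strand setting of counting are not given in the sources used here. Symbols were taken from GENCODE 44 (1429 identifiers did not match).

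Each comparison was fitted on its own libraries over all genes with DESeq2 1.42.0 in R 4.3.3 (Wald test, no shrinkage), leaving out genes with fewer than 10 counts in more than 3 libraries. For interactions a gene needed 10 counts or more in 3 or more libraries. edgeR 4.0.16, other scalings, no filter, a replicate block, one model over all groups and leaving out each library were alternatives. Normalised counts are counts divided by size factors over all 22 libraries.

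On data simulated with gene-specific dispersions, DESeq2 made more false calls than its threshold names. This held for GSK3i in BRCA2-deficient cells and for the interaction with BRCA2 depletion. edgeR stayed within the bound set, which was wider than the threshold, and so did DESeq2 with dispersions on the fitted trend. The dispersions were edgeR's estimates and the simulated libraries varied independently, so the simulation does not rank the tests on the real libraries. edgeR's counts are therefore given beside the calls. Replicates differed by more than counting error (chi-square per gene 10.8 to 64.4 over 20 pairs). The labels do not say what a replicate number shares, so p-values measure the spread between these libraries. Same-numbered libraries deviated together in every pair (correlation over 0.1, 3 pairs) for GSK3i and for siβ-catenin without GSK3i in BRCA2-deficient cells, for GSK3i after siβ-catenin in the same cells, for siβ-catenin under GSK3i in both backgrounds and for BRCA2 depletion under GSK3i.

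Members and lists were chosen with earlier results of these data known. Genes were named by rule: all mtDNA-encoded members and SDHA to SDHD, up to 5 called members per direction and comparison with a mean of at least 20, the extremes per length of each complex, complex IV isoforms, and called list genes of lowest adjusted p. Other members of a called group are named to account for it.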

Additional observations from a re-analysis of the deposited data

Results flagged for a closer look

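NDUFAF4 and NDUFAF2 stood out because their response to GSK3i differed between siβ-catenin and control siRNA in BRCA2-proficient cells by a test of the difference itself (DESeq2 interaction). The interaction was -1.37 for NDUFAF4 (adjusted p = 0.017) and -0.93 for NDUFAF2 (adjusted p = 0.0193). The NDUFAF2 call was lost without control-siRNA GSK3i replicate 1 or 2 (adjusted p = 0.055 and 0.0556), and the NDUFAF4 call was kept. The fit holds the 2 libraries that went against their labels. Leaving out both leaves 1 siβ-catenin library, in a fit chosen after seeing the data, and gave -0.87 for NDUFAF4 and -0.74 for NDUFAF2. Both calls were lost without untreated replicate 2 or 3, fits with 1 untreated library, and without siβ-catenin replicate 2. edgeR called neither with the libraries as labelled, but over all 17093 genes it called only 0 higher and 4 lower.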

How the results depend on the processing

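Calls among members depended on single libraries, on scaling and on the test. With the adjusted p alone, 43 members were called for GSK3i in BRCA2-proficient cells and 1 for BRCA2 depletion in untreated cells. Scaling by total counts gave 15 for GSK3i in BRCA2-proficient cells and 7 in the deficient ones, 1 for siβ-catenin given with GSK3i to BRCA2-proficient cells, and 3 (untreated) and 1 (under GSK3i) for BRCA2 depletion. It moved the median of all genes to -0.13 for GSK3i in BRCA2-proficient cells (1274 higher and 3112 lower against 1983 and 2389), and to 0.14 for the interaction with siβ-catenin in those cells (935 and 335 against 661 and 644). The split of all calls also moved to 1338 and 2976 for GSK3i in BRCA2-deficient cells, against 1955 and 2334. The replicate block gave 14 members for GSK3i in BRCA2-proficient cells and 2 for BRCA2 depletion under GSK3i, and moved no other member count by over 1.5 times. edgeR and one model over all groups each called 0 members for siβ-catenin without GSK3i in either background. Over all genes edgeR called 0 higher and 1 lower there in BRCA2-proficient cells, and none in BRCA2-deficient cells. One model gave 1 for BRCA2 depletion in untreated cells, and edgeR 0 for the interaction with siβ-catenin in BRCA2-proficient cells. In that interaction edgeR called 0 higher and 4 lower of all 17093 genes. Without both libraries that went against their labels, GSK3i after siβ-catenin in BRCA2-proficient cells gave 14 and that interaction 1.

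Leaving out one library at a time, members called ran from 15 to 42 (GSK3i, BRCA2-proficient), 5 to 17 (GSK3i, BRCA2-deficient) and 9 to 26 (GSK3i after siβ-catenin, BRCA2-deficient). For siβ-catenin they ran from 0 to 1 under GSK3i in either background, and without GSK3i from 0 to 14 (BRCA2-proficient) and from 0 to 2 (BRCA2-deficient). For BRCA2 depletion they ran from 0 to 10 untreated and 0 to 1 under GSK3i, and for the interaction with siβ-catenin in BRCA2-proficient cells from 0 to 3. The mtDNA median for GSK3i after siβ-catenin in BRCA2-proficient cells, -0.31, ran from -0.66 to 0.18, the latter without siβ-catenin replicate 3. The share of all genes called in each fit that left out a library is not given here, so these ranges cannot be set against it. The causes were not tested. Over the single-gene values followed through the alternatives, which hold no mtDNA-encoded gene, a call was lost 81 times and gained 5 times, and no value that was called in either fit changed sign.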
